A study of Mus musculus with 41 samples.

Results

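The receptors for serotonin, noradrenaline, dopamine, acetylcholine and histamine were followed in the hippocampus of mice ranked by learning and memory. Genes were taken by symbol, as probe sets with a single platform symbol that begins with Htr, Adra, Adrb, Drd, Chrm, Chrn or Hrh and a receptor number or subunit letter. This gave 71 probe sets for 41 genes, out of 18193 genes with a single symbol on the array. Each gene is represented by its brightest probe set over the 41 arrays. The set holds 13 serotonin, 2 adrenergic, 4 dopamine, 3 muscarinic and 4 histamine receptor genes and 15 nicotinic subunit genes. Genes entered by symbol and by no measured value, although the set was proposed with earlier results of these data known. The probe set of each gene was chosen by its measured brightness in these arrays. Htr2a, Adra1d, Adra2a, Adrb1 and Drd5 were not analysed here.

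These receptors read out the diffuse transmitter systems that reach the hippocampus from the raphe nuclei, locus coeruleus, midbrain, septum and hypothalamus. Most are G protein coupled and act through Gs, which raises cyclic AMP, through Gq, which mobilises calcium, or through Gi, which lowers cyclic AMP and opens potassium channels. The nicotinic receptors and the serotonin receptor built from Htr3a and Htr3b are instead ion channels that open within milliseconds of transmitter binding.

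All animals were male inbred C57BL/6J mice aged 10 weeks at the start of testing. They carried no engineered allele and received no drug that the labels name, and each went through the same behavioural battery, so no untested mice serve as a control. Groups were set by 5 cognitive tests with 11 parameters, and a mouse was placed in a class when 2 ranking systems gave it the same class. There were 5 mice with high, 12 with medium and 8 with low cognition, 14 with inconsistent rankings and 2 with incomplete data. Hippocampal RNA, taken 1 month after the last test, which fell in weeks 37 to 38 of age, went on 1 Affymetrix array per mouse.

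Levels are given as log2(intensity + 16) after quantile normalization, where a value of 4 is an intensity of 0. Between arrays, the Pearson correlation over all probe sets ran from 0.971 to 0.991, and 0 pairs held identical values. Probe sets with a mean deposited intensity under 38.4, the median over all probe sets, are called dim. The arrays were clustered by their spike-in control signals and cut into 3 groups, a number set here, which held 7, 15 and 19 arrays. The high arrays lay in the last 2 of these, 3 in the group of 15 and 2 in the group of 19. Differences within each of them are therefore given for several of the receptors. They rest on few arrays, since the group of 15 held 3 low and 3 medium arrays and the group of 19 held 4 and 7.

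Of the 41 receptor genes, 19 were bright and 22 were dim. The bright genes included Chrm1, Chrna7, Htr2c, Htr1a, Hrh3, Htr4, Chrnb2 and Htr1b. Chrm1, the main muscarinic receptor of pyramidal cells, had a mean deposited intensity of 626. Chrna7, which forms calcium-permeable channels by itself, had one of 544. Among the 15 nicotinic subunits, 4 were bright, namely Chrna4, Chrna5, Chrna7 and Chrnb2. All 5 subunits of the muscle receptor, Chrna1, Chrnb1, Chrnd, Chrne and Chrng, were dim. So were Chrna9, a subunit known from cochlear hair cells, Chrna6 and Chrnb3, known from dopaminergic neurons, and Hrh4, known from immune cells. Htr6, Chrm4, Hrh2 and Chrna2 were dim as well, with mean deposited intensities of 21.0, 6.77, 17.6 and 4.02. These examples therefore do not tie brightness to a tissue. Drd1 was the single bright gene of the 4 dopamine receptors, with Drd2, Drd3 and Drd4 dim. A dim probe set says only that little signal was measured, and levels of different probe sets are not compared with each other.

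The median SD over the 41 arrays was 0.21 for the 19 bright receptors, against 0.17 for all bright probe sets. For the 22 dim receptors it was 0.27, against 0.24 for all dim probe sets. The widest spreads among the receptors were those of Drd4, Adra1b, Chrna6, Drd1, Hrh1 and Hrh2, with SDs of 0.42, 0.41, 0.40, 0.37, 0.36 and 0.36. The spread of Drd1 and Hrh1 rested in good part on a single array, described next.

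One array, medium 9, stood apart in its regional markers and in many receptors. Its mean over 16 hippocampal neuron markers was 7.95, against 9.05 to 9.50 in the other 40 arrays. Its mean over 12 striatal markers was 8.01, against 6.83 to 7.08, and over 10 neocortical markers 8.60, against 7.08 to 7.47. Of the 41 receptors, 9 lay above and 6 below the range of the other 40 arrays in medium 9, or 36.6% of them, against 19.6% of all probe sets. Drd1, the Gs-coupled receptor that is dense in striatum, stood at 8.53 in medium 9, against at most 7.25 in the others. Hrh1, the Gq-coupled histamine receptor, stood at 7.62, against at most 7.00.

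Drd2, the striatal Gi-coupled dopamine receptor, was at 6.26 in medium 9, against at most 5.39 elsewhere, although its probe set is dim in the hippocampus. Adra1b, Htr5a, Htr7, Htr1f, Hrh3 and Chrna4 were the other receptors above the range. In the opposite direction, Htr4, a Gs-coupled serotonin receptor, was at 5.80, against at least 7.11 in the others. Chrna7 was at 8.12, against at least 8.88, and Htr1a at 7.34, against at least 7.64. Chrna5, Htr3a and Chrnd were also below the range, Chrnd by less than 0.01. Because the labels keep medium 9 in its group, results for the medium mice are given with it, and without it where that matters. In such bulk tissue, fewer cells of a type and less RNA per cell cannot be told apart.

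**Figure D1:**
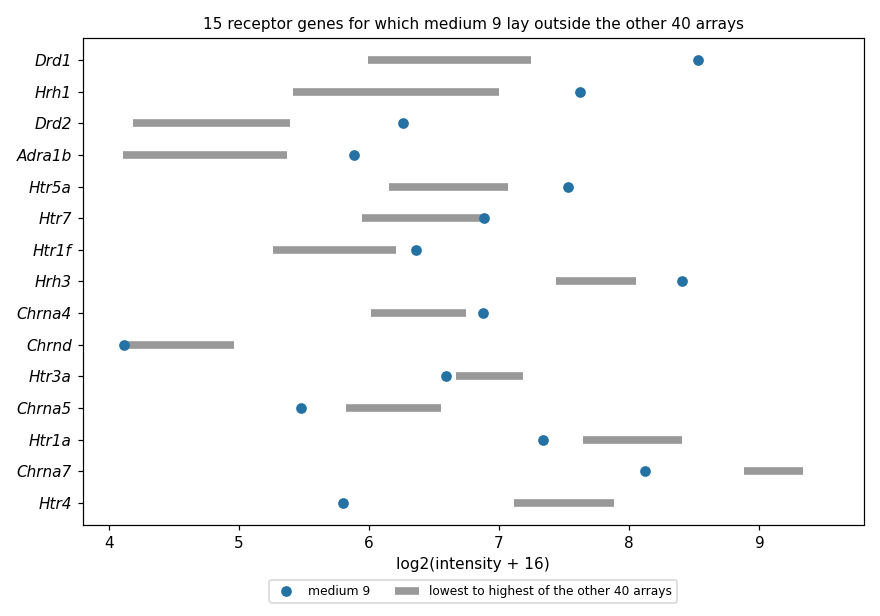
Levels, as log2(intensity + 16) on the horizontal axis, of the 15 receptor genes for which the array medium 9 lay outside the other 40 arrays. Each point is medium 9 and each grey bar spans the lowest to the highest of the other 40 arrays. Drd1 at 8.53 is farthest above its bar and Htr4 at 5.80 is farthest below.

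No receptor passed the test for any comparison of the ranked groups. With limma's moderated test on all 45037 probe sets and a Benjamini-Hochberg threshold of 0.05, 0 of 41 receptors were called for high against low, for high against medium, for medium against low, or for any difference among the 3 groups. The share of all probe sets called was 0.00444% for high against low, 0.00888% for high against medium, 0% for medium against low and 0.00444% for any difference. The lowest adjusted p of a receptor was 0.57 for high against low, 0.22 for high against medium and 1.00 for medium against low. Small differences could not be told from spread here, since standard errors for high against low ran from 0.07 to 0.24. For 28 of the 41 receptors the 95% interval of that difference lay within 0.5 of 0 on either side.

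At an unadjusted limma p under 0.05, 5 receptors differed between high and low mice, or 12.2%, against 7.24% of all probe sets. They were Htr1f, higher in high mice, and Drd3, Chrm1, Htr1d and Hrh2, lower in high mice. Between high and medium mice there were 10, or 24.4%, against 10.1% of all probe sets. Of these, Htr5b, Htr1a and Chrne were higher and Drd3, Htr1d, Chrm1, Drd2, Chrna4, Hrh2 and Hrh3 lower in high mice. Both comparisons use the same 5 high arrays, so values they have in common are not separate evidence. Without medium 9 there were also 10 between high and medium mice, where 9.88% of all probe sets reached this level. Chrne then left the list and Htr1f entered it. Between medium and low mice there was 1, Chrnb2, or 2.44%, against 3.7% of all probe sets. Hrh3, Htr5a, Chrng and Chrna2 had the next smallest p there. Their medium minus low differences were 0.15 ± 0.08, 0.21 ± 0.12, -0.16 ± 0.10 and 0.15 ± 0.10 (SE). For any difference among the 3 groups there were 5, Drd3, Htr1d, Chrm1, Drd2 and Hrh3, where 7.26% of all probe sets reached this level. Groups that did not overlap between high and low were found for 0 receptors, and for 0.349% of all probe sets.

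The median difference over the 41 receptors was 0.03 for high minus low, with 23 above 0 and 18 below, against a median of 0.00 over all probe sets. For high minus medium it was -0.01, with 18 above and 23 below, and for medium minus low 0.02, with 22 above and 19 below.

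**Figure D2:**
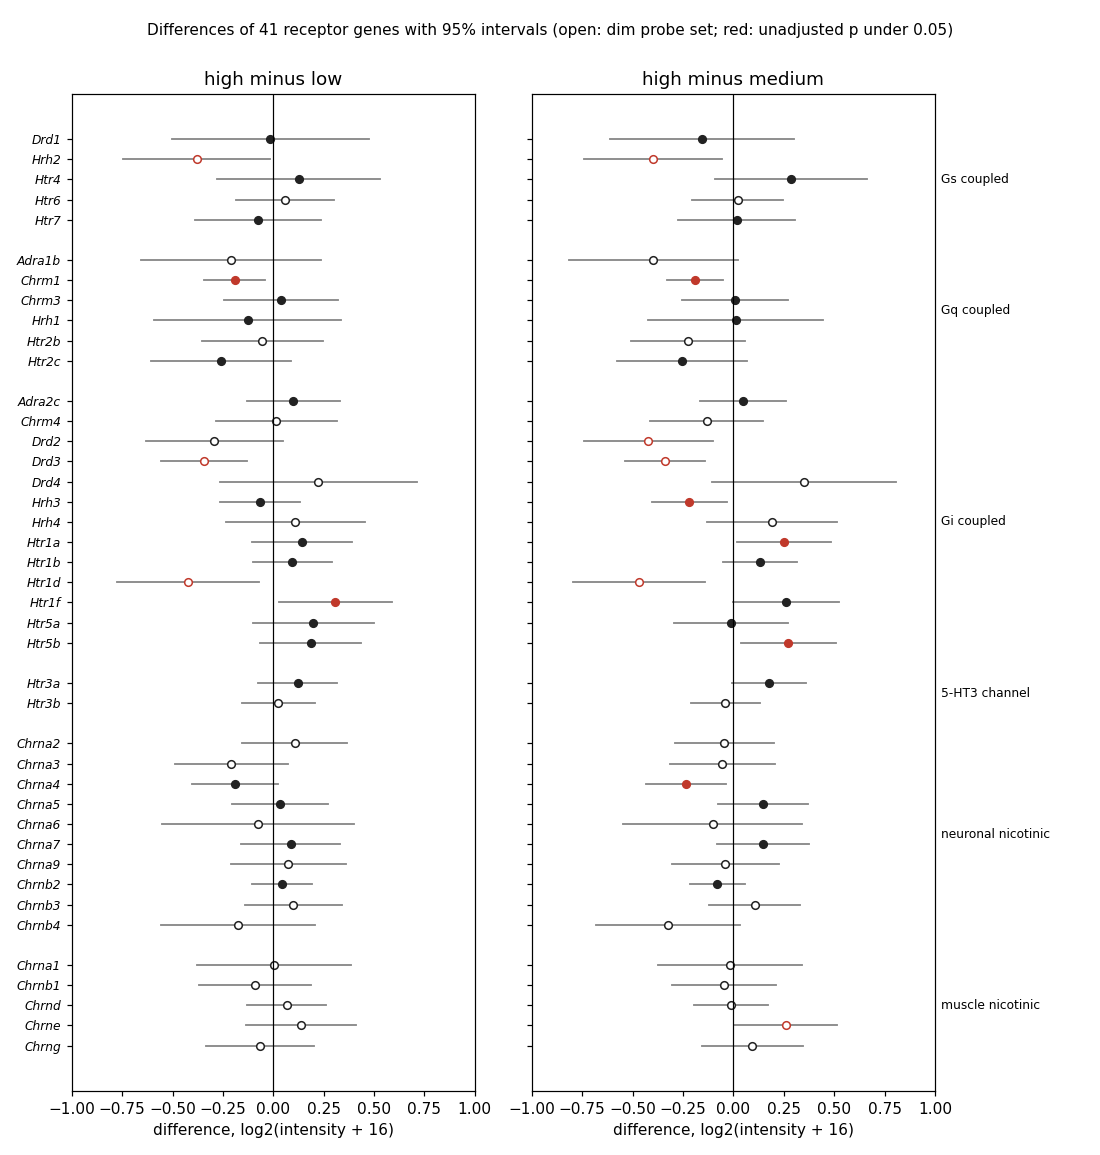
Differences of the 41 receptor genes in log2(intensity + 16), high minus low on the left and high minus medium on the right, grouped from top to bottom by how the receptor signals. Points are fitted differences with 95% intervals, open points are dim probe sets and red points have an unadjusted p under 0.05. The red points number 5 on the left and 10 on the right, and 0 of them passed adjustment.

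Among the 5 Gs-coupled receptors, Drd1, Hrh2, Htr4, Htr6 and Htr7, the differences between high and low mice ran from -0.38 to 0.13. Hrh2, the histamine receptor that raises cyclic AMP, had the lowest of them. Its levels were 5.28, 4.19, 4.20, 4.80 and 4.86 in the 5 high mice, against 4.66, 5.11 and 5.40 (lowest, median, highest) in the low mice and 4.49, 5.06 and 5.67 in the medium mice. High 2 and high 3 lay below every low and medium mouse, near the floor of the scale, whereas high 1 lay above the median of both groups. The difference from low mice was -0.38 ± 0.18 (SE, limma adjusted p = 0.68) and from medium mice -0.40 ± 0.17 (adjusted p = 0.42). Within the spike-in groups of 15 and 19 arrays the difference from low mice was -0.45 and -0.10, and that from medium mice -0.49 and -0.09.

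Htr4, which also couples to Gs, stood at 7.79, 7.61, 7.47, 7.60 and 7.55 in the high mice, against 5.80, 7.48 and 7.71 in the medium and 7.11, 7.51 and 7.88 in the low mice. All 5 high mice lay within the range of the low mice. The difference of high from medium mice was 0.28 ± 0.18, and 0.15 ± 0.09 without medium 9. For Drd1 the same difference was -0.16 ± 0.22 with medium 9 and 0.00 ± 0.13 without it. Drd1 averaged 6.66 ± 0.22 in high and 6.67 ± 0.36 in low mice (SD, n = 5 and 8). Htr7 differed by -0.08 ± 0.15 and the dim Htr6 by 0.06 ± 0.12 between high and low mice. A second, dim Htr7 probe set gave -0.30 ± 0.14 (limma unadjusted p = 0.046).

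Of the 6 Gq-coupled receptors, Adra1b, Chrm1, Chrm3, Hrh1, Htr2b and Htr2c, 5 had a lower mean in high than in low mice. Their median difference was -0.16. Over all probe sets, 51.2% of high minus low differences were above 0. The classes were assigned after the values were seen, and 9 of the 13 Gi-coupled receptors were above 0, with a median of 0.10. Chrm1 had the smallest p of the Gq-coupled receptors and is the bright receptor with the smallest p in either comparison of the high mice. It stood at 9.25, 9.26, 9.01, 9.23 and 8.97 in the high mice, against 9.14, 9.36 and 9.51 in the low and 9.12, 9.37 and 9.49 in the medium mice. All 5 high mice lay below both other group means, yet 3 of them lay within the range of the low mice. The difference was -0.19 ± 0.07 from low mice (limma adjusted p = 0.61) and -0.19 ± 0.07 from medium mice (adjusted p = 0.33).

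Within the spike-in groups of 15 and 19 arrays, the Chrm1 difference from low mice was -0.13 and -0.21, and that from medium mice -0.06 and -0.26. A second, less bright Chrm1 probe set followed the first with r = 0.42 over the 41 arrays. It gave -0.12 ± 0.14 for high minus low and 0.00 ± 0.13 for high minus medium. The 14 inconsistent mice had a Chrm1 mean of 9.38 ± 0.16 (SD), above that of all 3 ranked groups. Chrm3, which is also Gq coupled and bright, differed by 0.04 ± 0.14 between high and low mice. Hrh1 differed by -0.13 ± 0.23, and its second, dim probe set by 0.10 ± 0.16.

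Adra1b, a dim adrenergic receptor with a wide spread, differed by -0.21 ± 0.22 from low and -0.40 ± 0.20 from medium mice, the second being -0.31 ± 0.18 without medium 9. Within the spike-in groups of 15 and 19 its difference from low mice was 0.10 and -0.21, and that from medium mice -0.46 and -0.34. Htr2b, known chiefly from peripheral tissues, differed by -0.05 ± 0.15 between high and low mice.

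Htr2c, a Gq-coupled serotonin receptor, is known for very high expression in the choroid plexus, the epithelium that secretes cerebrospinal fluid. It stood at 9.09, 9.06, 9.02, 9.26 and 9.27 in the high mice, against 8.98, 9.27 and 10.05 in the medium and 8.82, 9.37 and 10.02 in the low mice. The high mice lay close together in the lower part of the range and the other groups spread upward. The difference was -0.26 ± 0.17 from low mice (limma adjusted p = 0.78) and -0.26 ± 0.16 from medium mice (adjusted p = 0.62). A second bright Htr2c probe set, with r = 0.76 to the first, gave -0.25 and -0.21. Taken within the spike-in groups of 15 and 19 arrays, the difference from low mice was -0.21 and -0.12, and that from medium mice -0.36 and -0.11. Without low 1 the difference from low mice was -0.17.

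Choroid plexus markers, among them Ttr, Kl and Folr1, moved with Htr2c. The mean of 12 such markers separated the arrays into 11 at 7.74 to 9.03 and 30 at 5.49 to 6.50. The 11 arrays came from 0 high, 4 medium, 3 low, 3 inconsistent and 1 incomplete mice. Htr2c ran from 9.34 to 10.05 with a median of 9.94 in the 11 arrays, against 8.82 to 9.45 with a median of 9.20 in the 30. Within the 11, Htr2c followed the marker mean with r = 0.79 (Spearman's rho 0.65), and within the 30 with r = 0.04 (rho 0.01), as a description over arrays that share dissection and normalization.

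All 12 choroid plexus markers had a lower mean in the high mice than in the low mice, with a median difference of -1.09, and 0 of the 12 were called. Among the 30 arrays with low marker means, Htr2c averaged 9.14 ± 0.12 in 5 high, 9.19 ± 0.14 in 8 medium and 9.18 ± 0.23 in 5 low mice (SD). With the choroid plexus marker mean as a covariate, the Htr2c difference was -0.01 for high minus low and -0.05 for high minus medium.

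**Figure D3:**
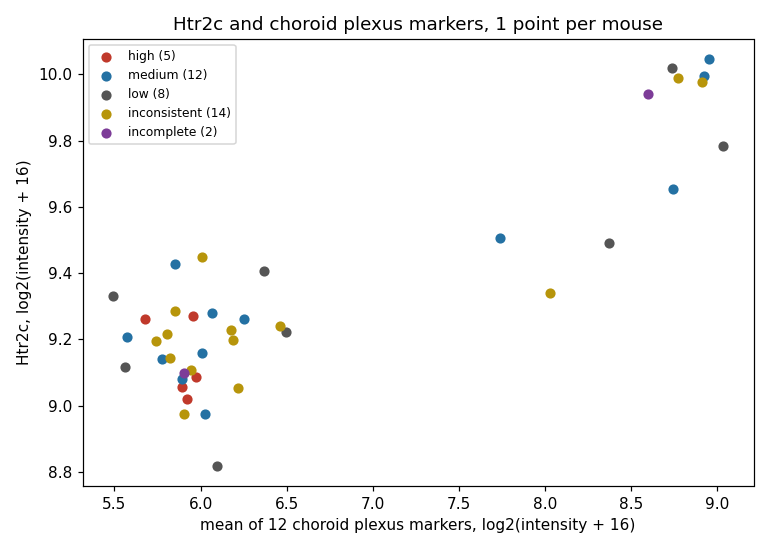
Htr2c against the mean of 12 choroid plexus markers, both as log2(intensity + 16), with 1 point per mouse coloured by group. The 11 arrays on the right hold 0 high mice and have Htr2c from 9.34 to 10.05, against 8.82 to 9.45 in the 30 arrays on the left.

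Of the 13 Gi-coupled receptors, the largest of the 6 signalling classes, 3 had an unadjusted p under 0.05 between high and low mice, where 7.24% of all probe sets did, and 6 between high and medium mice, where 10.1% did. Htr5b is counted here with its close relative Htr5a. Drd3, a dopamine receptor known from the islands of Calleja and ventral striatum, had the smallest p of all 41 genes in both comparisons. Its levels were 4.70, 4.15, 4.05, 4.55 and 4.21 in the high mice, against 4.44, 4.70 and 4.88 in the low and 4.41, 4.68 and 4.91 in the medium mice. High 2, high 3 and high 5 lay below every low and medium mouse, and high 1 lay at about the median of the low mice. The difference was -0.35 ± 0.10 from low mice (limma adjusted p = 0.57) and -0.34 ± 0.10 from medium mice (adjusted p = 0.22).

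Drd3 was dim, with a mean deposited intensity of 8.39, so these values lie just above the floor. Within the spike-in groups of 15 and 19 its difference from low mice was -0.35 and -0.26, and that from medium mice -0.50 and -0.19. The 14 inconsistent mice spanned 4.05 to 4.96 and so covered the levels of all ranked groups. Without high 1, the difference from medium mice had the lowest adjusted p met under any setting for a receptor, 0.11.

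Drd2, another Gi-coupled dopamine receptor, stood at 4.85, 4.76, 4.98, 5.05 and 4.30 in the high mice, against 4.84, 5.16 and 6.26 in the medium and 4.72, 5.11 and 5.31 in the low mice. Of the high mice, high 5 lay below all low and medium mice and the other 4 lay among them. The difference from medium mice was -0.42 ± 0.16 (limma adjusted p = 0.35), and -0.33 ± 0.11 without medium 9 (adjusted p = 0.30). The difference from low mice was -0.29 ± 0.17 (adjusted p = 0.75), and -0.17 without high 5. Within the spike-in groups of 15 and 19 arrays, the difference from medium mice was 0.02 and -0.75, and that from low mice -0.02 and -0.56. Drd4, which is dim, ran the other way, at 0.22 ± 0.24 for high minus low and 0.35 ± 0.22 for high minus medium.

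Htr1d, a Gi-coupled serotonin receptor and dim here with a mean deposited intensity of 13.4, stood at 4.06, 4.86, 4.76, 4.10 and 4.81 in the high mice, against 4.49, 4.96 and 5.34 in the low and 4.37, 5.11 and 5.27 in the medium mice. High 1 and high 4 were near the floor and below all low and medium mice. The difference was -0.42 ± 0.17 from low mice (limma adjusted p = 0.63) and -0.47 ± 0.16 from medium mice (adjusted p = 0.30). It was -0.46 and -0.48 from low mice within the spike-in groups of 15 and 19, and -0.11 and -0.69 from medium mice. The other 2 probe sets of Htr1d, also dim, gave 0.03 and -0.06 for high minus low.

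Htr1f, a relative of Htr1d, stood at 5.82, 6.06, 6.08, 6.21 and 5.88 in the high mice, against 5.51, 5.73 and 5.94 in the low and 5.30, 5.74 and 6.36 in the medium mice. All 5 high mice lay above the mean of the low mice and 3 lay above its highest value. The difference from low mice was 0.31 ± 0.14 (limma adjusted p = 0.67). The difference from medium mice was 0.26 ± 0.13, and 0.32 ± 0.11 without medium 9 (adjusted p = 0.33). Within the spike-in groups of 15 and 19 arrays the difference from low mice was 0.29 and 0.24, and that from medium mice was 0.43 and 0.00. A second Htr1f probe set, with r = 0.47 to the first, gave 0.09 for high minus low.

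**Figure D4:**
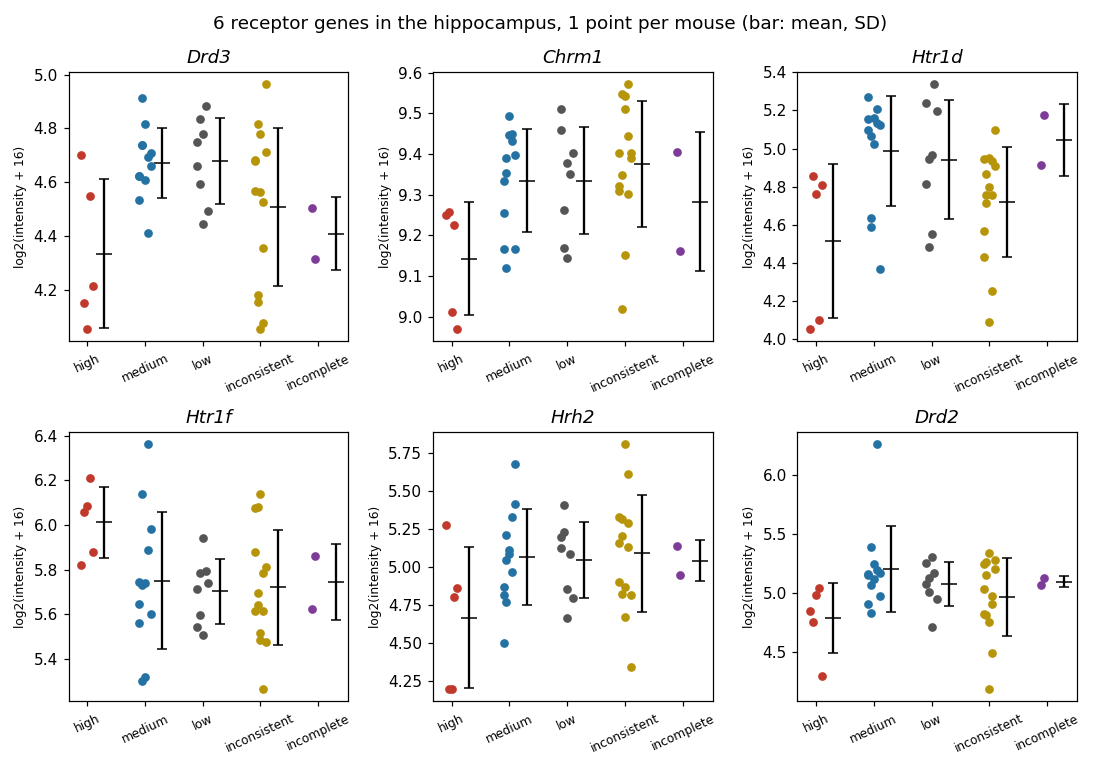
Levels of Drd3, Chrm1, Htr1d, Htr1f, Hrh2 and Drd2 as log2(intensity + 16) on the vertical axes, with 1 point per mouse in the high, medium, low, inconsistent and incomplete groups. Black bars give the mean and SD of each group. The 5 high mice overlap the other groups in every panel, and medium 9 is the top point of Drd2 at 6.26.

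Htr1a, the inhibitory receptor that hyperpolarises pyramidal cells and serves as autoreceptor in the raphe, was bright. It stood at 8.16, 8.33, 8.39, 8.40 and 8.20 in the high mice, against 7.34, 8.11 and 8.34 in the medium and 7.64, 8.20 and 8.34 in the low mice. All 5 high mice lay above the mean of each other group, and high 3 and high 4 lay above its highest mouse. The difference from medium mice was 0.25 ± 0.11 (limma adjusted p = 0.47), or 0.18 ± 0.09 without medium 9. The difference from low mice was 0.14 ± 0.12, and 0.07 without low 6. In the spike-in groups of 15 and 19 arrays, the Htr1a difference from medium mice was 0.21 and 0.20, and that from low mice 0.16 and 0.09. A second bright Htr1a probe set gave 0.00 from medium and -0.02 from low mice. Htr1b, the autoreceptor of serotonergic terminals, differed by 0.09 ± 0.10 between high and low mice. A second bright Htr1b probe set, with r = -0.04 to the first, gave -0.15 ± 0.14.

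Htr5a and Htr5b differed by 0.20 ± 0.15 and 0.19 ± 0.12 between high and low mice. A second, dim Htr5a probe set gave -0.10 ± 0.16. Htr5b, named here after its values were seen, differed by 0.27 ± 0.11 between high and medium mice (limma adjusted p = 0.42). Hrh3, the presynaptic receptor that restrains histamine release, stood at 7.80, 7.47, 7.45, 7.63 and 7.62 in the high mice, against 7.62, 7.77 and 8.40 in the medium and 7.44, 7.65 and 7.81 in the low mice. High 1 was above the medium median and the other 4 were below it. The difference from medium mice was -0.22 ± 0.09 (adjusted p = 0.42), or -0.16 ± 0.07 without medium 9, and that from low mice was -0.06 ± 0.10. The Hrh3 difference from medium mice was -0.18 in each of the spike-in groups of 15 and 19 arrays, and that from low mice was -0.09 and 0.04. Adra2c, Chrm4 and Hrh4 differed by 0.10 ± 0.11, 0.02 ± 0.15 and 0.11 ± 0.17 between high and low mice.

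Among the ion channels, Htr3a, the obligatory subunit of the serotonin-gated channel and a marker of a class of interneurons, differed by 0.12 ± 0.10 between high and low mice and by 0.18 ± 0.09 between high and medium mice. Its partner Htr3b was dim and differed by 0.03 ± 0.09 between high and low mice.

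The 10 neuronal nicotinic subunits, 4 of them bright, differed by -0.21 to 0.11 between high and low mice, with 6 above 0 and 4 below. Chrna4 and Chrnb2 form the high-affinity nicotinic receptor of the brain. Chrna4 stood at 6.29, 6.02, 6.27, 6.50 and 6.35 in the high mice, against 6.29, 6.48 and 6.87 in the medium and 6.19, 6.50 and 6.69 in the low mice. High 2 lay below all medium and low mice and the others overlapped them. The difference was -0.23 ± 0.10 from medium mice (limma adjusted p = 0.42) and -0.19 ± 0.10 from low mice (adjusted p = 0.73), the second being -0.12 without high 2. For the spike-in groups of 15 and 19 arrays taken alone, the difference from medium mice was -0.24 and -0.18, and that from low mice -0.13 and -0.26. The other 2 probe sets of Chrna4 gave -0.14 and -0.14 for high minus low, and -0.09 and -0.27 for high minus medium.

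Chrnb2 was at 7.42, 7.40, 7.32, 7.53 and 7.34 in the high mice, 7.34, 7.47 and 7.72 in the medium and 7.05, 7.37 and 7.50 in the low mice. It was the 1 receptor with an unadjusted p under 0.05 for medium minus low, at 0.12 ± 0.06 (limma adjusted p = 1.00), with low 5 at 7.05 below the others. Without low 5 the difference was 0.08 (limma unadjusted p = 0.14). Without medium 9 the unadjusted limma p of Chrnb2 was 0.0504, which left 0 receptors under 0.05. The further Chrnb2 probe sets, both dim, gave differences of opposite sign for medium minus low, -0.12 ± 0.08 and 0.16 ± 0.15. Chrna7 was at 9.22, 9.17, 9.12, 9.18 and 9.28 in the high mice, against 8.12, 9.11 and 9.25 in the medium and 8.88, 9.14 and 9.23 in the low mice. The difference from low mice was 0.09 ± 0.12, and that from medium mice 0.15 ± 0.11, or 0.06 ± 0.05 without medium 9. Chrna5, an accessory subunit, differed by 0.03 ± 0.12 between high and low mice.

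The dim Chrna2, Chrna3, Chrna6, Chrna9, Chrnb3 and Chrnb4 had differences of 0.11, -0.21, -0.08, 0.07, 0.10 and -0.17 between high and low mice. The 5 muscle subunits differed by -0.09 to 0.14. Chrne, the adult muscle subunit and dim here, differed by 0.26 ± 0.12 between high and medium mice (limma adjusted p = 0.49), and is named after its values were seen. Without medium 9 it differed by 0.26 ± 0.13 (limma unadjusted p = 0.055). Its levels in the high mice were 4.17, 4.78, 4.62, 4.55 and 4.60, against 4.15, 4.24 and 4.63 in the medium mice, all within 0.8 of the floor.

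For the 22 genes with several probe sets there were 30 further ones, and their correlation with the probe set used had a median of 0.18 over the 41 arrays. For the 7 that were bright the median was 0.35. The second Drd1 probe set followed the first with r = 0.73, and those of Chrna7 and Hrh1 with 0.48 and 0.46.

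Levels of several receptors varied with regional markers across arrays, in part through medium 9. The correlations below are descriptions over arrays that share dissection, normalization and spike-in groups, from 492 pairs of a receptor and a marker list. Htr4 followed the hippocampal marker mean with r = 0.90 over 41 arrays (Spearman's rho 0.50), 0.61 without medium 9, and 0.54 without medium 9 and low 8, the 2 arrays farthest from the median. Within the 3 spike-in groups r was 0.24, 0.68 and 0.95, the last holding medium 9. Drd1 ran against it, with r = -0.85 (rho -0.33), -0.51 without medium 9 and -0.37 without both arrays.

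Hrh1 also ran against the hippocampal markers, with r = -0.76 (rho -0.60), -0.66 without medium 9 and -0.55 without both arrays, and within the 3 spike-in groups r was 0.67, -0.80 and -0.84. It ran with the neocortical marker mean, at r = 0.73 (rho 0.58) and 0.54 without medium 9. Chrna7 followed the hippocampal markers with r = 0.82 (rho 0.17), but with 0.07 without medium 9, so this relation rests on that array. Likewise Drd1 followed the striatal marker mean with r = 0.73, and with 0.00 without medium 9. In all, 5 of the 41 receptors, all bright, reached a correlation of 0.7 in size with a marker list over the 41 arrays, and 28 stayed under 0.5 with every list, 20 of them dim.

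**Figure D5:**
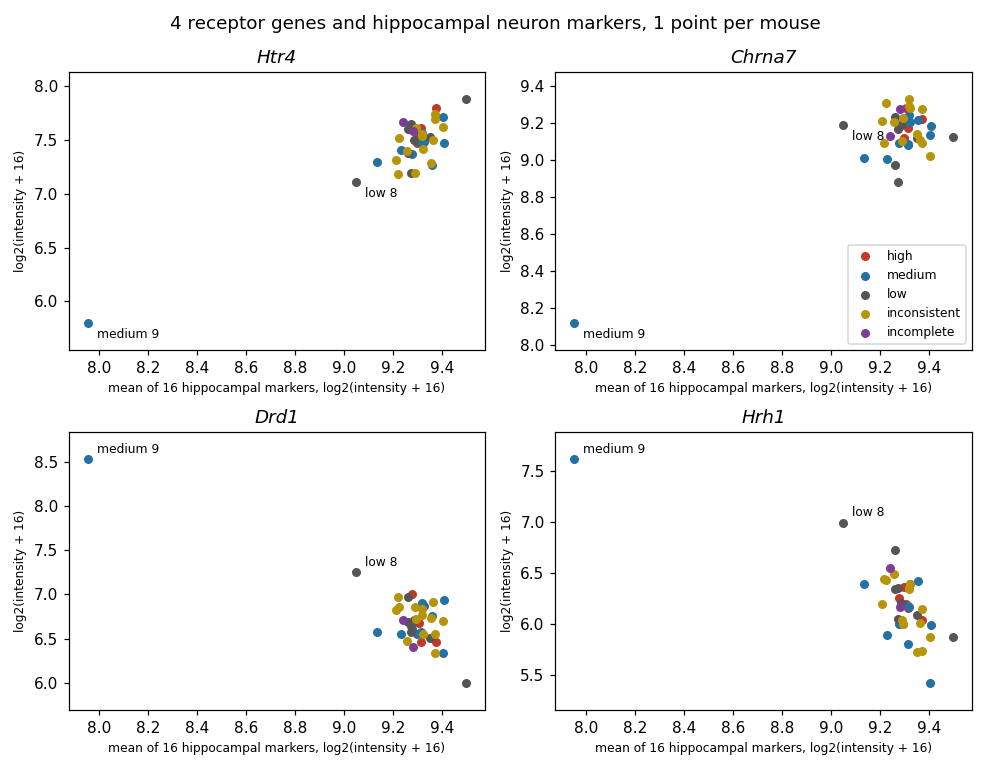
Levels of Htr4, Chrna7, Drd1 and Hrh1 against the mean of 16 hippocampal neuron markers, all as log2(intensity + 16), with 1 point per mouse coloured by group. Medium 9 lies alone at a marker mean of 7.95, and low 8 is the next lowest at 9.05. Without medium 9, Htr4 has r = 0.61 and Hrh1 r = -0.66, and Chrna7 has r = 0.07.

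Receptors varied together in the same way. Drd1 and Htr4 had r = -0.85 over 41 arrays and -0.57 without medium 9. Drd1 and Hrh1 had 0.74 and 0.52, and Chrna7 and Htr4 had 0.80 and 0.29. Over all 820 pairs of receptors the median size of r was 0.13, and 10 pairs exceeded 0.6. Among all genes with a single symbol, those most like Drd1 were Krt12, Ngef and Dpp10, with r of 0.90, 0.86 and 0.85, or 0.72, 0.60 and 0.68 without medium 9. Those most like Hrh1 were Mef2c, Dpp10 and Cobl, with r of 0.87, 0.86 and 0.86, or 0.79, 0.76 and 0.76 without it.

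For the other receptors of widest spread, the gene most like Adra1b was Snap91 at 0.73, for Chrna6 it was 4933432K03Rik at 0.62, for Hrh2 Cd83 at 0.57 and for Drd4 P2ry14 at 0.56. Htr4, Chrna7 and Htr2c were added after their values had been seen. Pcdh20 was most like Htr4, with r of 0.95, or 0.83 without medium 9, and also most like Chrna7, with 0.88, or 0.46 without it. Sostdc1, itself a marker on the choroid plexus list, was most like Htr2c.

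The sequence before the start of the gene is shown for Drd1 and Chrna7, which lay outside the other arrays in medium 9, and for Htr2c, which ran with the choroid plexus markers. Each is the 250 bases upstream of the RefSeq start in GRCm38.p6, written 5′ to 3′ on the gene's own strand, with every CG pair in capitals. Promoters of 32 of the 41 receptors were matched by symbol in the RefSeq table. Drd1, on the minus strand at chr13:54055659-54055908 and the first of 2 listed starts, Chrna7, on the minus strand at chr7:63212527-63212776, and Htr2c, on the plus strand at chrX:146962263-146962512, read as follows.
Drd1: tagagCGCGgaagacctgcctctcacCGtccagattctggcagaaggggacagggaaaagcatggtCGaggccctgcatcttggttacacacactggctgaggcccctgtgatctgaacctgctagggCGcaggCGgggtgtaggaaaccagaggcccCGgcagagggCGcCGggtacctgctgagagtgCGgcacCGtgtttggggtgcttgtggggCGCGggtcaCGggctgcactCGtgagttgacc
Chrna7: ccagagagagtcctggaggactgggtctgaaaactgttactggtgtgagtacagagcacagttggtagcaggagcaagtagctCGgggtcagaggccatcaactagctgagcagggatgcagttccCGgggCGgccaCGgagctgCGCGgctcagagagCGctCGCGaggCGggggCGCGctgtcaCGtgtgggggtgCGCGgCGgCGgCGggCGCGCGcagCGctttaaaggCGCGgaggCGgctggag
Htr2c: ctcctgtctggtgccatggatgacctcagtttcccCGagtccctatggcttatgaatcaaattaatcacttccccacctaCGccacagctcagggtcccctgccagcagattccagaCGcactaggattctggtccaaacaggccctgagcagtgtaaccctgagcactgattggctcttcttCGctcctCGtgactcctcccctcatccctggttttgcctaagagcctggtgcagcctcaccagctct
The Chrna7 window held 25 CG pairs and 67.2% G and C, and the Drd1 window 15 CG pairs and 64%, against 5 pairs and 55.6% in Htr2c. Over the 32851 windows of the same length the median was 6 pairs, with quartiles of 2 and 16, and 52.4% G and C.

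Short motifs were searched in these windows on both strands, with overlaps allowed. Chrna7 held 1 GC box (GGGCGG, in 32.7% of all windows) and 2 E-box letters (CANNTG, in 66.2%). Htr2c held 1 CCAAT (in 33.8%). TATAAA, present in 12.4% of all windows, was in none of the 3. These are matches of letters and show no binding.

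The transmitter systems around the receptors were described with 6 lists, from enzymes and transporters to signalling and receptor assembly, and 0 genes of any list were called in any comparison. Of 17 measured genes for making, moving and breaking down monoamines, 7 had a higher and 10 a lower mean in high than in low mice, with a median difference of -0.07. Hnmt, which inactivates histamine, differed by -0.15 ± 0.06 and Maoa, which oxidises serotonin and noradrenaline, by -0.14 ± 0.06. Of 7 acetylcholine genes, 3 had a higher and 4 a lower mean in high than in low mice, with a median difference of -0.01. Against medium mice the counts were also 3 and 4, with a median difference of -0.22, against 0.00 over all probe sets. Between high and low mice Bche, which splits choline esters, differed by -0.27 ± 0.11 and the vesicular transporter Slc18a3 by -0.15 ± 0.14.

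Downstream, the 22 measured G protein subunits had a median difference of -0.02 between high and low mice, with Gna11 (a Gq family member) at 0.19 ± 0.08 and Gnao1 (a Gi family member) at -0.15 ± 0.06. Among 18 effectors, Plcb1, the phospholipase that Gq drives, differed by 0.13 ± 0.05, and Ppp1r1b, the dopamine-regulated phosphatase inhibitor that is also on the striatal list, by -0.31 ± 0.22. Of 17 genes of desensitization, Rgs16, which speeds G protein shut-off, differed by 0.38 ± 0.16 and the receptor kinase Grk4 by -0.29 ± 0.15. Of 16 genes of receptor assembly, Musk, a kinase of the neuromuscular junction, differed by -0.25 ± 0.13 and Lynx1, a brake on nicotinic receptors, by -0.12 ± 0.07. Adjusted p-values of these genes for high minus low in limma ran from 0.62 to 0.87.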

How the data were processed

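Intensities of 41 arrays were used. The deposited intensity values are linear by their range, from 0.0112 to 13549, with array medians from 22.4 to 55.2. How they were made is not given here in the sources used, beyond Partek and RMA, listed with no version in the submitters' processing notes. Quantile normalization over the 41 arrays and log2(intensity + 16) were applied to the deposited intensities here. The 64 array controls were left out, and 45037 probe sets were fitted for the 25 ranked arrays by limma (3.58.1, R 4.3.3), using group means, moderated statistics with an intensity trend, Benjamini-Hochberg adjustment and a threshold of 0.05. Fold changes of dim probe sets are understated on this scale. Precision is limited by the number of arrays.

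The receptors and lists were chosen with earlier results of these data known, and the signalling classes were assigned after the values were seen. The 25 receptors picked for description were a list of 15 present on the array, the 5 with the smallest p in each comparison and the 6 of largest SD, with overlaps. Levels per mouse are given for some of them and only differences for others. The 3 most similar genes were found for those of largest SD, and for some only the first is named. From each transmitter system list, the 2 genes with the smallest p for high minus low are given. One mouse labelled inconsistent also carries a description as medium. It stayed in the inconsistent group, with an alternative that moved it. Replicate numbers did not pair the mice, since 1 of 18 same-numbered pairs had deviations correlated above 0.1. Alternatives covered filters, variance models, normalization, offsets, array weights, the arrays fitted, spike-in groups, tissue markers and each mouse left out. The fit was tested on simulated data.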

Additional observations from a re-analysis of the deposited data

Results flagged for a closer look

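For the 25 receptors picked for description, each group of 5 high or 8 low mice was searched by Dixon's ratio. The search was for a highest or lowest mouse that stood far from the next one. Of 50 such groups, 6 (12%) held one. The critical ratios flag about 5% of groups when values are normally distributed. That rate need not hold for dim probe sets near the floor, or for receptors picked by small p or large SD. No share over all probe sets is given beside the 12%, so an excess was not tested. In the high mice, Chrm4 was highest in high 3 at 4.87, Chrna2 was highest in high 1 at 4.72 and Chrng was lowest in high 5 at 4.08. These probe sets are dim, with levels close to the floor of 4. In the low mice, Chrna2 was highest in low 8 at 4.54, Chrnb2 was lowest in low 5 at 7.05 and Htr1a was lowest in low 6 at 7.64.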

How the results depend on the processing

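The count of receptors called remained 0 in each pairwise comparison under 17 other settings and with each of the 25 ranked mice left out, and for any difference under 16 settings and the same omissions. The lowest adjusted p in any of these was 0.28 for high against low and 0.11 for high against medium, both without high 1, and 0.95 for medium against low with no normalization between arrays. Counts of receptors at an unadjusted limma p under 0.05 ran from 1 to 7, from 4 to 12 and from 0 to 2 in the same order. In the main fit 7.24%, 10.1% and 3.7% of all probe sets reached this level. That share can move with the setting and is not given for each, so these ranges say nothing particular to the receptors. With the replicate number as a block, the counts of called receptors also stayed at 0 and the Drd3 difference between high and low mice was -0.35. Over all probe sets, array weights gave 24 calls for high against medium, against 4. Without normalization between arrays the median of all probe sets shifted by -0.14 for high minus medium. Drd3, Chrm1, Htr1d and Hrh2 stayed lower and Htr1f higher in high than in low mice in every setting and with each mouse left out. The exception was 1 of the other Htr1d probe sets, at 0.03. These 5 had the smallest p of this comparison, and several settings, such as fitting all 41 arrays, leave the difference unchanged. Their stable sign is therefore not separate evidence. The unadjusted limma p stayed under 0.05 in 15 of 16 settings for Drd3 and 16 of 16 for Htr1d. For Chrm1 it did in 14 of 17, for Htr1f in 13 of 17 and for Hrh2 in 9 of 16. The size of dim differences depended on the offset: Drd3 was at -1.28 with an offset of 1 and -0.14 with one of 50, Htr1d at -1.33 and -0.18, and Hrh2 at -1.03 and -0.16. Medium 9 changed values of Htr4, Chrna7, Drd1, Hrh1, Drd2 and Adra1b for the medium mice most. Dim receptors near the floor and 5 high mice limit what could be detected.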
